A study of Mus musculus with 14 samples.

Results

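The effect of Rheb deletion that microglia showed both with and without endotoxin was measured in 12 of 14 RNA-seq libraries. Microglia are the resident macrophages of the brain, and here they were purified with magnetic beads from mice aged 8 weeks. WT mice had floxed Rheb alleles alone (Rheb F/F), and KO mice had the same alleles with a tamoxifen-inducible Cre driven by the microglial gene Tmem119 (Rheb F/F; Tmem119-cre ER). After tamoxifen, mice of both genotypes were given PBS, or LPS at 1.0 mg/kg, by 4 daily intraperitoneal injections. LPS is the endotoxin of Gram-negative bacteria. Cre was present in all KO and absent from all WT libraries, so what Cre itself does and what the loss of Rheb does cannot be told apart. The 12 libraries were 2 WT PBS (WT_PBS_904 and WT_PBS_913), 3 KO PBS (KO_PBS_911, KO_PBS_912 and KO_PBS_915), 4 WT LPS (WT_LPS_1 to WT_LPS_4) and 3 KO LPS (KO_LPS_1, KO_LPS_2 and KO_LPS_4). WT_PBS_914 and KO_LPS_3 were left out because they held pituitary transcripts. Growth hormone (Gh) stood at 78126 TPM (reads per gene length, scaled to the same total in every library) in WT_PBS_914 and 19672 TPM in KO_LPS_3, against at most 1.90 TPM in the other 12. Some endocrine transcripts remained in the 12: Chga, a protein of secretory granules, stood at 131 TPM in WT_PBS_904, 91.0 TPM in WT_PBS_913 and 143 TPM in KO_PBS_912, at 0 and 0.196 TPM in KO_PBS_911 and KO_PBS_915, and at 31.3 TPM or less under LPS. No label states that each library is a separate animal, so a p-value here reflects the spread between libraries, and that spread may be technical.

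Rheb is a small GTPase that, when loaded with GTP on the lysosome surface, switches on the kinase complex mTORC1. The TSC complex holds Rheb in its inactive form. Active mTORC1 promotes ribosome production and translation, above all of mRNAs that begin with a run of pyrimidines, and it keeps TFEB, an activator of lysosomal genes, out of the nucleus. The common effect of genotype was the KO minus WT difference in log2(TPM + 1), fitted with limma with treatment as a block. A gene was called at a Benjamini-Hochberg adjusted p under 0.05 over all genes tested, and only called genes are said to have risen or fallen.

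The libraries held 15.7 to 20.7 M reads (M for mega) under PBS, 19.3 to 32.3 M in WT LPS and 8.00 to 18.9 M in KO LPS, with the lowest depth in KO_LPS_4. The PBS libraries carried male transcripts (Ddx3y at 118 to 146 TPM) and the LPS libraries female ones (Xist at 255 to 574 TPM). Treatment and sex therefore cannot be told apart, while each KO to WT comparison lies within 1 sex. The microglial genes Cx3cr1 and Csf1r stood at 1389 TPM or more in all 12 libraries.

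Of 18246 genes tested, 261 were higher in KO (1.43% of the genes) and 123 were lower (0.674%), 2.10% in all. Ribosomal protein genes made up 60 of the 261 rises. The falls included the microglial surface protein gene Tmem119, the protease inhibitor gene Cst3, the protease gene Ctsd and the sialic acid receptor gene Cd22. Most changes were small: the median of the rises was 0.54 on the log2 scale and that of the falls was -0.61, and 20 rises and 15 falls reached 1. For 323 of the 384 called genes, every KO library lay beyond every WT library in the direction of the call under both treatments. Among all genes tested, the libraries parted in this way for 2.43% with KO higher and 1.17% with KO lower. With TPM rescaled between libraries by median of ratios, 173 genes were higher and 170 lower, so the excess of rises over falls depended on scaling. The count dropped to 84 without WT_PBS_904, 122 without WT_PBS_913, 187 without KO_PBS_915, 190 without KO_PBS_912, 205 without KO_PBS_911 and 207 without WT_LPS_1. It was 652 with all 14 libraries. All 384 kept their direction in each of the 12 fits that left out 1 library, and 74 (48 higher, 26 lower) were also called in each of them. A gene named below belongs to these 74 unless a library is given whose removal ended its call. The genes named for the largest rises and falls were picked for no overlap under either treatment. Their lack of overlap was therefore fixed by that rule and is given as a description.

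Rheb itself was checked first. Under PBS it stood at 29.7 and 32.2 TPM in WT and at 16.6, 19.0 and 19.1 TPM in KO. Under LPS it stood at 31.8, 32.5, 33.6 and 25.1 TPM in WT and at 25.5, 22.9 and 19.5 TPM in KO. KO was lower under both treatments, with the highest KO LPS library just above the lowest WT LPS library. Rheb fell by 0.55 ± 0.10 (SE, n = 12) in the common fit (limma, adjusted p = 0.0172), and by an exact two-sided permutation of genotype within treatment p = 0.0057. The limma call was lost without WT_PBS_904 (adjusted p = 0.0644) and without WT_PBS_913 (adjusted p = 0.0643). The left-out libraries held 34.5 TPM (WT_PBS_914) and 23.1 TPM (KO_LPS_3). The labels do not say which exons are floxed, so TPM over the whole gene is no measure of recombination. In bulk RNA, fewer cells with the transcript and less transcript per cell cannot be told apart.

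Other parts of the mTORC1 machinery did not move as a group. Of 14 genes of Rheb, the TSC complex and the mTORC1 core, 2 fell and none rose, with a median of 0.04 against 0.01 over all genes tested. Among all genes tested, 1.43% rose and 0.674% fell. Mtor, the kinase, had a common effect of 0.01 ± 0.06 (SE, n = 12), Rptor, its substrate-binding partner, -0.11 ± 0.07, and Rhebl1, the paralog of Rheb, 0.22 ± 0.23, none of them called. The fall besides Rheb was in Prr5l, whose product binds the sister complex mTORC2. Prr5l stood at 12.7 and 11.4 TPM in WT PBS, 4.87, 6.04 and 7.595 TPM in KO PBS, 19.6, 27.1, 22.1 and 25.3 TPM in WT LPS, and 15.7, 11.7 and 8.95 TPM in KO LPS. It was lower in KO without overlap under both treatments (common effect -0.91 ± 0.14, adjusted p = 0.0119). Among 43 genes of nutrient sensing upstream of mTORC1, Castor2, a relative of the arginine sensor Castor1, was the one called. Castor2 had means of 20.55 TPM in WT PBS, 10.8 TPM in KO PBS, 8.28 TPM in WT LPS and 5.28 TPM in KO LPS (effect -0.71 ± 0.13, adjusted p = 0.0158). Its call was lost without WT_PBS_904 (-0.67, adjusted p = 0.0653) and without WT_PBS_913. Of 12 genes through which mTORC1 acts on translation, the ribosomal protein gene Rps6 rose (0.64 ± 0.12) and Eef2k, the kinase that inhibits elongation factor 2, fell (-0.65 ± 0.13). Rps6 was not called without WT_PBS_904 (adjusted p = 0.0690), WT_PBS_913 or KO_PBS_915. Eef2k was not called without WT_PBS_904 (adjusted p = 0.0830), WT_PBS_913, WT_LPS_1, KO_PBS_911, KO_PBS_912 or KO_PBS_915.

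**Figure D1:**
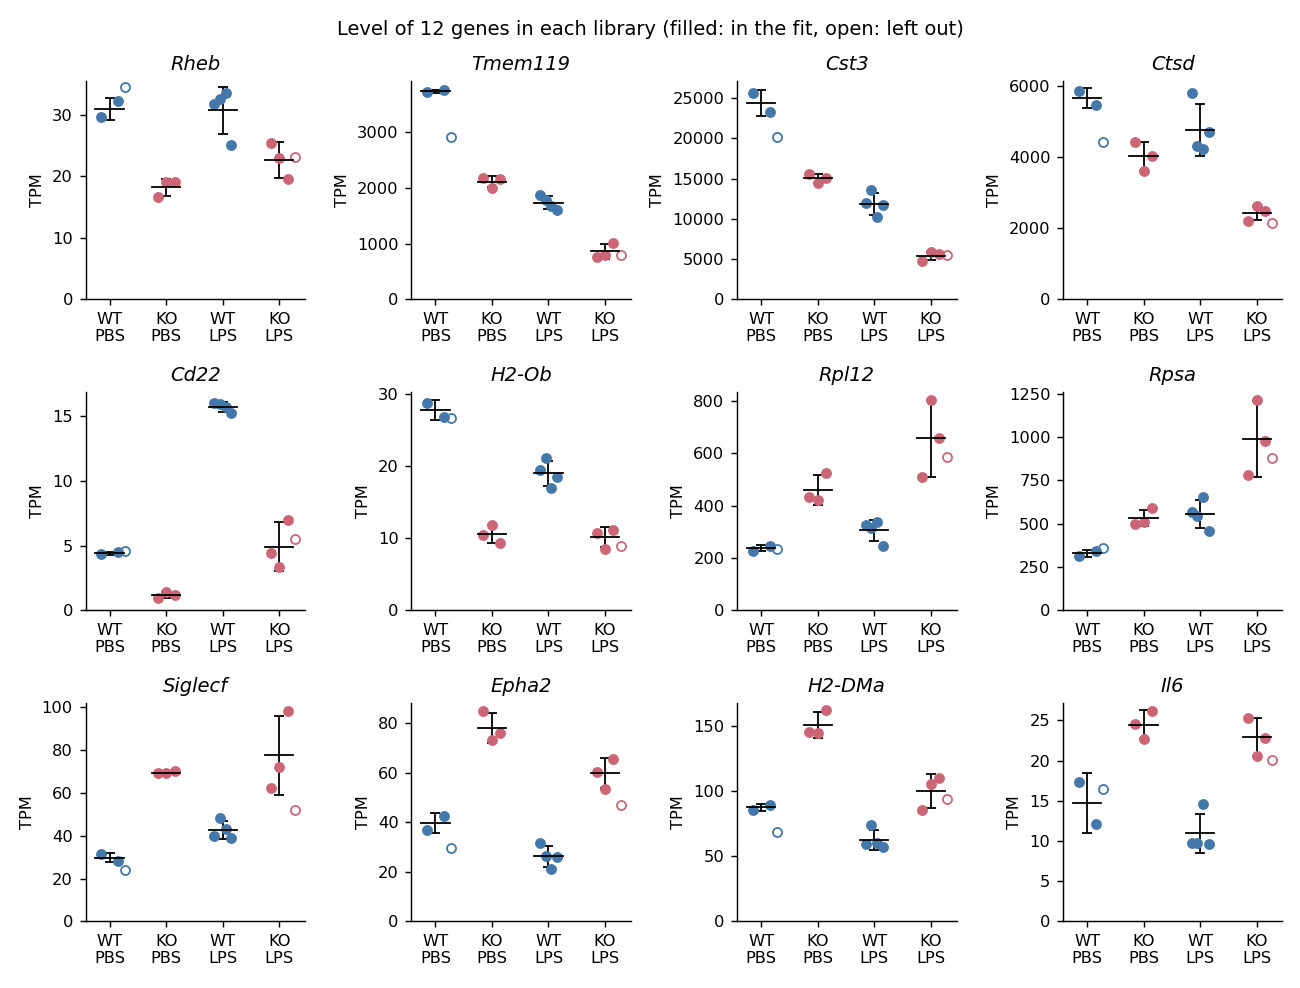
TPM on a linear axis from 0 for 12 genes, by group: filled points are libraries in the fit, open points the left-out libraries, horizontal bars means and whiskers SD. In each panel except that of Rheb under LPS, the filled KO points lie apart from the filled WT points under both treatments. The rule for the largest rises and falls required this of all but Rheb, Ctsd and H2-DMa.

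Cytosolic ribosomal protein genes held more rises than any other list. All 77 measured members had a positive common effect and 60 were called higher, against 1.43% of all genes tested. The median of the 77 was 0.61, and it was 0.60 under PBS and 0.60 under LPS. KO and WT libraries did not overlap under either treatment, with KO higher, for 66 of them, against 2.43% of all genes tested. Summed over the group, ribosomal protein mRNA took 3.97% and 4.19% of all TPM in WT PBS and 5.77%, 5.81% and 6.97% in KO PBS. It took 5.61%, 5.51%, 5.43% and 4.14% in WT LPS and 6.43%, 9.80% and 7.91% in KO LPS. Every KO library exceeded every WT library of its treatment, WT_LPS_4 being the lowest of its group. Fewer members were called without WT_PBS_904 (15), WT_PBS_913 (27) or KO_PBS_915 (37), while the median stayed between 0.52 and 0.68 in the 12 fits that left out 1 library. It was 0.58 with median-of-ratios scaling and 0.52 after quantile normalisation. In WT_LPS_4 the short RNA gene Gm23935 took 153781 TPM, against 40440 to 69377 TPM in the other LPS libraries of the fit. The PBS libraries of the fit held 705 to 2477 TPM of it, so levels set side by side across treatments carry this difference. Rescaled without features under 200 nt, Gm23935 among them, 71 members were called and the median was 0.60. Many of these genes have near-identical processed pseudogenes that can take or lend reads, so single members are uncertain.

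**Figure D2:**
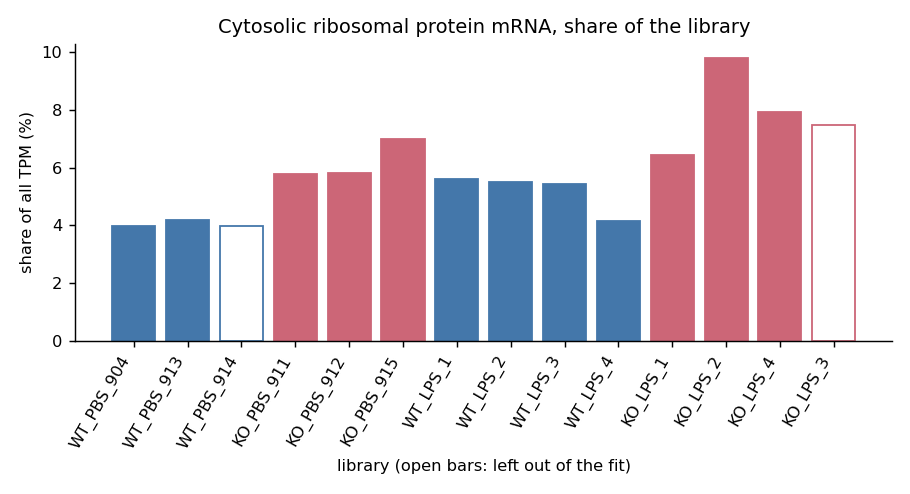
Share of all TPM (percent, linear axis from 0) taken by 77 cytosolic ribosomal protein genes in each of the 14 libraries. Blue bars are WT, red bars KO and open bars the left-out libraries. KO bars reach 5.77% to 9.80% and WT bars 3.97% to 5.61%, with KO above WT within each treatment.

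Translation of these mRNAs is set by their first bases, a C followed by further pyrimidines. The starts of a few risen members are therefore shown, picked for having such a run and not typical of the 77. Rack1, outside the 77 and added by hand, was also picked with such a run, and Rpl12 is shown without one. RefSeq promoter windows (GRCm38.p6) were found for 57 of the 77 genes. Each line runs 5′ to 3′ from 15 bases before the RefSeq start to 15 bases into the transcript, and capitals mark the pyrimidine run that begins with C at the start.
Rps18: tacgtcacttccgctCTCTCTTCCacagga
Rps15a: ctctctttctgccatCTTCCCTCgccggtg
Rps6: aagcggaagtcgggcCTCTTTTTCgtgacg
Rack1: cggaggccgctctttCTTTTTCTCCacagg
Rpl14: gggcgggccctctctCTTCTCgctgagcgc
Rplp2: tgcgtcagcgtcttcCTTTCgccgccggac
Rpl12: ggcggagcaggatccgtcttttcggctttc
They lie at chr17:33955651-33955680 (minus strand, Rps18), chr7:118116133-118116162 (minus, Rps15a), chr4:86857353-86857382 (minus, Rps6), chr11:48800345-48800374 (plus, Rack1), chr9:120571502-120571531 (plus, Rpl14), chr7:141447636-141447665 (plus, Rplp2) and chr2:32961697-32961726 (plus, Rpl12). Rpl12, the ribosomal protein gene with the largest rise, has no such run at its RefSeq start, and its line has no capitals. A C at the start followed by at least 4 pyrimidines (C or T) on the transcribed strand was found in 13 of the 57 windows (22.8%), against 363 of 11996 windows of all genes tested (3.03%). It was found in 6 of 149 windows of the other called rises (4.03%) and in 4 of 94 windows of the falls (4.26%). The match depends on which base RefSeq takes as the start.

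Among single ribosomal protein genes, Rpl12, a protein of the large subunit stalk base, stood at 228 and 246 TPM in WT PBS and 434, 420 and 525 TPM in KO PBS. Under LPS it stood at 327, 314, 336 and 247 TPM in WT and 508, 803 and 659 TPM in KO. KO was higher under both treatments without overlap (1.03 ± 0.12, adjusted p = 0.00278). Rpsa, a small subunit protein, stood at 316 and 342 TPM in WT PBS, 500, 509 and 588 TPM in KO PBS, 570, 545, 657 and 461 TPM in WT LPS, and 778, 1214 and 975.2 TPM in KO LPS. It rose by 0.76 ± 0.11 (adjusted p = 0.0105), again with no overlap, and its KO PBS level lay within the range of WT LPS. Rps18 and Rpl32 rose by 0.86 and 0.83, and Rack1, a scaffold protein of the small subunit outside the list, by 0.73. Rps15a rose by 0.74 and Rpl17 by 0.77, but neither was called without WT_PBS_904 (0.71 and 0.75, adjusted p = 0.0564 for each). Rpl36a rose by 0.76 and was not called without WT_PBS_904 (0.73, adjusted p = 0.0671) or WT_PBS_913. The 17 members that were not called lay between 0.24 (Rpl41) and 0.66 (Rpl39), all positive.

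The rise extended in part to genes that build or serve the ribosome. Of 45 ribosome biogenesis factors 5 rose and none fell, against 1.43% rises among all genes tested, and 44 had a positive effect with a median of 0.20. The 5 rises became 1 without WT_PBS_904, WT_PBS_913, KO_PBS_912, KO_PBS_915 or WT_LPS_1, 2 without KO_PBS_911 or KO_LPS_2, and 10 without WT_LPS_3. Gnl3, which encodes the nucleolar protein nucleostemin, stood at 20.6 and 23.6 TPM in WT PBS, 39.6, 38.1 and 37.4 TPM in KO PBS, 29.4, 39.6, 33.5 and 30.1 TPM in WT LPS, and 61.9, 49.7 and 43.8 TPM in KO LPS. The KO libraries were the higher ones under both treatments (0.69 ± 0.10, adjusted p = 0.00867). Ppan, a large subunit assembly factor outside the list and named after its values were seen, rose by 0.62 ± 0.09 (adjusted p = 0.00867). Of 34 translation factors 4 rose (1.43% of all genes tested) and 33 had a positive effect, with a median of 0.20. The 4 rises became 0 without WT_PBS_904 or WT_PBS_913, 1 without any one of the KO PBS libraries, and 2 without KO_LPS_2 or WT_LPS_1. Eef1b2, a subunit of the exchange factor of elongation factor 1, rose by 0.66, a call lost without WT_PBS_904 (0.68, adjusted p = 0.0507) and without WT_PBS_913. Among 26 nucleotide synthesis genes, Gart and Atic of the purine pathway rose and none fell. Gart stood at 25.4 and 25.9 TPM in WT PBS, 38.5, 42.1 and 41.5 TPM in KO PBS, 20.7, 21.6, 25.6 and 21.96 TPM in WT LPS, and 28.3, 29.8 and 30.5 TPM in KO LPS (0.49 ± 0.07, adjusted p = 0.0104). Atic (0.44) was called in 3 of the 12 fits, those without KO_LPS_1, KO_LPS_4 or WT_LPS_3, and its highest adjusted p was 0.111, without WT_PBS_904. Mitochondrial ribosomal proteins, a separate set of genes, showed no call among 77, with a median of 0.03. Of 82 oxidative phosphorylation subunits 1 fell (0.674% falls among all genes tested) and none rose, with a median of -0.01.

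Host genes of small nucleolar RNAs, which guide the modification of ribosomal RNA, were counted after their values were seen. Of 14 measured Snhg genes, Gas5 included, 6 rose and none fell (1.43% rises among all genes tested), with a median of 0.43. The count was 0 without WT_PBS_904 and 3 without KO_PBS_912 or KO_PBS_915. Snhg15 stood at 4.98 and 4.75 TPM in WT PBS, 12.3, 12.4 and 10.7 TPM in KO PBS, 12.2, 15.3, 13.2 and 17.9 TPM in WT LPS, and 20.6, 20.3 and 23.5 TPM in KO LPS. It rose without overlap (0.78 ± 0.13), but was not called without WT_PBS_904 (0.72, adjusted p = 0.0532). Mir17hg, the host transcript of the miR-17-92 cluster of microRNAs, rose by 0.95 ± 0.15 (adjusted p = 0.0110). It stood at 3.92 and 2.89 TPM in WT PBS, 6.61, 7.58 and 8.13 TPM in KO PBS, 5.98, 9.86, 6.70 and 8.72 TPM in WT LPS, and 20.0, 15.3 and 12.8 TPM in KO LPS. Among 53 small nucleolar RNAs, Snord42b, which lies in an intron of the ribosomal protein gene Rpl23a, was the one called. It was listed at 0 in both WT PBS libraries and in 3 of 4 WT LPS libraries (3.56 TPM in WT_LPS_2), and at 5.74 to 12.05 TPM in the 6 KO libraries. Features this short are poorly sampled by such libraries, and reads from the host transcript can fall on them.

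**Figure D3:**
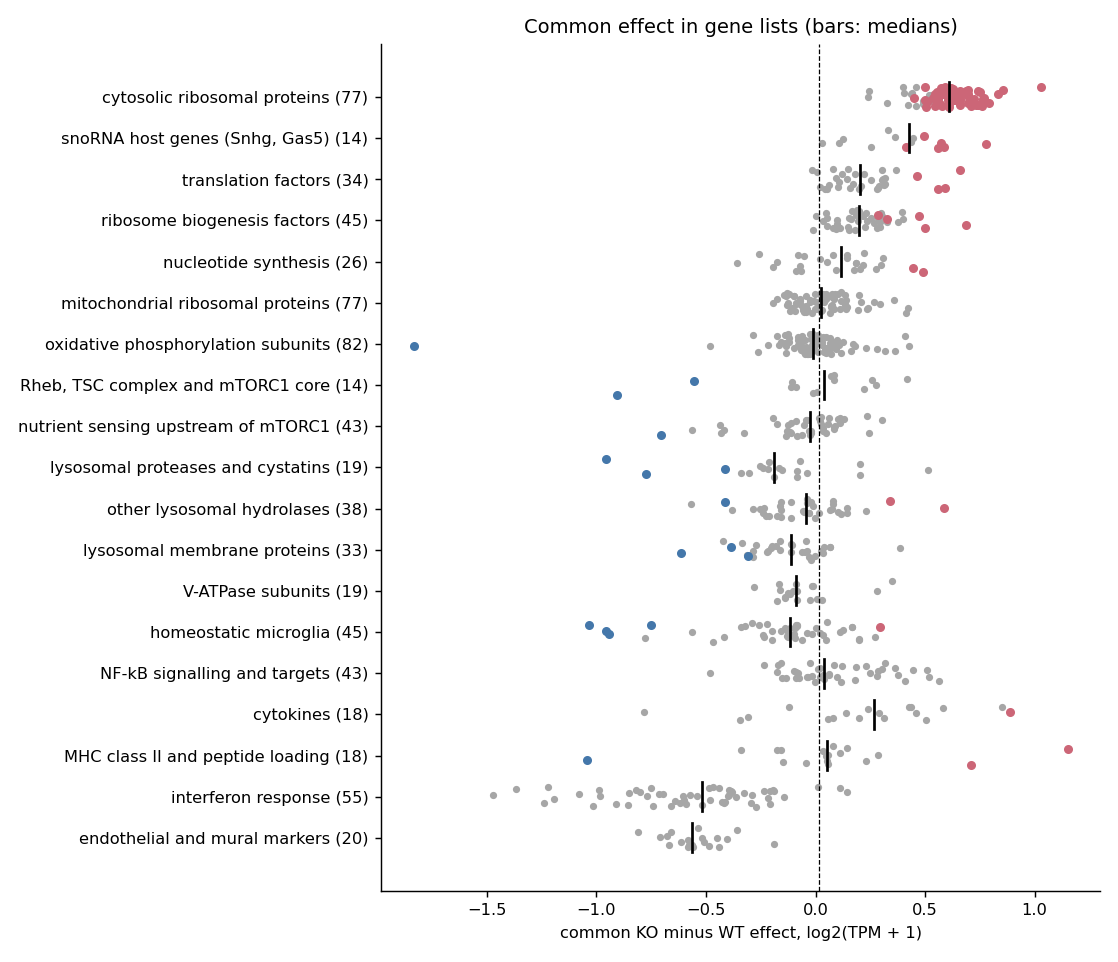
Common KO minus WT effect in log2(TPM + 1) of each measured member of 19 gene lists (member number in brackets). Red points are called rises, blue points called falls, grey points not called, black bars list medians and the dashed line the median of all genes tested (0.01). Cytosolic ribosomal proteins lie to the right of 0 throughout, and interferon response genes (52 of 55) and endothelial markers (20 of 20) lie to the left with no call.

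Among lysosomal genes 7 fell and 2 rose. Of 19 proteases and cystatins 3 fell and none rose, against 0.674% falls among all genes tested, and 16 had a negative effect (median -0.19). Of 33 membrane proteins 3 fell and none rose, and 26 had a negative effect (median -0.11). Of 38 other hydrolases 1 fell and 2 rose (1.43% rises among all genes tested), and 26 had a negative effect (median -0.05). None of 19 subunits of the acidifying V-ATPase was called (median -0.09). Without WT_PBS_904 no gene of these lists was called lower. Membrane protein falls also became 0 without KO_PBS_915 and 1 without KO_PBS_911, KO_PBS_912, WT_PBS_913, KO_LPS_2, WT_LPS_1 or WT_LPS_2. Hydrolase falls became 2 without KO_LPS_4 or WT_LPS_3, and hydrolase rises 1 without any library but WT_LPS_1. Cst3, the secreted cathepsin inhibitor cystatin C, stood at 25596 and 23288 TPM in WT PBS, 15602, 14432 and 15054 TPM in KO PBS, 12015, 13555, 10179 and 11748 TPM in WT LPS, and 4789, 5815 and 5569 TPM in KO LPS. All KO libraries were below all WT libraries of their treatment (-0.96 ± 0.17, adjusted p = 0.0158). Ctsd, the aspartyl protease cathepsin D, stood at 5864 and 5471 TPM in WT PBS, 4428, 3617 and 4014 TPM in KO PBS, 5810, 4319, 4210 and 4705 TPM in WT LPS, and 2210, 2611 and 2470 TPM in KO LPS. It fell without overlap (-0.77 ± 0.13, adjusted p = 0.0150). Neither was called without WT_PBS_904 (Cst3 -0.98, adjusted p = 0.0564; Ctsd -0.81, adjusted p = 0.0507) or without a filter on low genes (adjusted p = 0.164 and 0.0552). With TPM rescaled after leaving out ribosomal protein genes, both were called (Cst3 -0.92, Ctsd -0.73).

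The remaining lysosomal calls were smaller. Gm2a, the activator protein that presents gangliosides to hexosaminidase, fell by 0.41 and was not called without WT_PBS_904 (-0.41, adjusted p = 0.0563). Cln8, a protein that ferries lysosomal enzymes out of the endoplasmic reticulum, fell by 0.61, a call lost without WT_PBS_904 (-0.62, adjusted p = 0.0672) and without KO_PBS_915. Ctsb, the cysteine protease cathepsin B, fell by 0.41 and was not called without WT_PBS_904 (adjusted p = 0.0830), WT_PBS_913, KO_PBS_912, KO_PBS_915 or KO_LPS_4. Lamp1, an abundant lysosomal membrane protein, fell by 0.31 with an adjusted p of 0.0454, and it was called in just 1 of the 12 fits that left out a library, the one without WT_LPS_4. In contrast, Arsb, a sulfatase that degrades glycosaminoglycans, stood at 266 and 249 TPM in WT PBS, 329, 348 and 364 TPM in KO PBS, 148, 146, 146 and 153 TPM in WT LPS, and 204, 218 and 311 TPM in KO LPS. It rose under both treatments without overlap (0.59 ± 0.10, adjusted p = 0.0131).

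The DNA letters CACGTG, the core of the element bound by TFEB and its relatives and also by Myc, were searched in the 250 bases before each start, where they read the same on both strands. They were found for Ctsd and Lamp1 among the 5 fallen lysosomal genes that have a RefSeq window, and their surroundings are shown for that reason, with the letters in capitals.
Ctsd: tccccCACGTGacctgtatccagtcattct
Lamp1: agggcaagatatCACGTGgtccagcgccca
The first lies at chr7:142388048-142388077 on the minus strand, with its motif 245 bases before the start, and the second at chr8:13159088-13159117 on the plus strand, 61 bases before the start. The same letters stood in 1108 of 11996 windows of all genes tested (9.24%), in 9 of 94 windows of the falls (9.57%) and in 20 of 193 windows of the rises (10.4%). The falls and rises were thus both close to the background.

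Of 45 genes of the homeostatic microglial program 4 fell (Tmem119, Crybb1, Serpine2 and Cst3), against 0.674% falls among all genes tested, and 1 rose. The effect was negative for 32 of the 45, with a median of -0.11, which was 0.02 under PBS and -0.27 under LPS. For 7 of them KO lay below WT without overlap under both treatments (1.17% of all genes tested). The summed level of the 45 was 95910 and 101455 TPM in WT PBS and 83917 to 90140 TPM in KO PBS. It was 59339 to 69032 TPM in WT LPS and 41668 to 54737 TPM in KO LPS. Within the fit it was lower in every KO library than in WT of the same treatment. The left-out WT_PBS_914 stood at 78528 TPM, below every KO PBS library. Most of the drop in the sum under PBS lay in Cst3 alone, so the sum does not stand for the whole list. Tmem119, a surface protein used as a microglial marker, stood at 3726 and 3766 TPM in WT PBS, 2176, 2002 and 2164 TPM in KO PBS, 1872, 1783, 1670 and 1608 TPM in WT LPS, and 764, 794 and 1016 TPM in KO LPS. The groups did not overlap under either treatment, and Tmem119 was lower in KO in both (-0.94 ± 0.09, adjusted p = 0.00257). Cre was driven from this gene in KO, so an effect of the Cre allele on Tmem119 and an effect of Rheb loss cannot be told apart. Crybb1, a crystallin gene expressed in microglia, stood at 767 and 860 TPM in WT PBS, 412, 390 and 421 TPM in KO PBS, 509, 357, 286 and 398 TPM in WT LPS, and 155, 169 and 228 TPM in KO LPS. It fell without overlap (-1.03 ± 0.13, adjusted p = 0.00480). Serpine2, a secreted protease inhibitor, fell by 0.75 ± 0.10 (adjusted p = 0.00480). The widely used markers P2ry12, Cx3cr1 and Csf1r were not called. P2ry12 had a common effect of -0.26 ± 0.17, Cx3cr1 -0.12 ± 0.16 and Csf1r -0.10 ± 0.11. The rise was in Lyl1, a transcription factor gene (0.30), and it was not called without WT_PBS_913 (0.28, adjusted p = 0.0915), WT_PBS_904, KO_PBS_911, KO_PBS_912 or KO_LPS_4.

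Antigen-loading genes of MHC class II moved in opposite directions. H2-DM, made of the products of H2-DMa and an H2-DMb gene, loads peptides onto MHC class II, and H2-O, made from H2-Oa and H2-Ob, inhibits H2-DM. H2-Ob stood at 28.7 and 26.7 TPM in WT PBS, 10.4, 11.8 and 9.38 TPM in KO PBS, 19.4, 21.1, 17.0 and 18.5 TPM in WT LPS, and 10.7, 8.52 and 11.1 TPM in KO LPS. It fell under both treatments to about the same level (-1.04 ± 0.11, adjusted p = 0.00257). H2-DMa stood at 85.8 and 89.6 TPM in WT PBS, 146, 144 and 162 TPM in KO PBS, 59.7, 74.2, 59.9 and 57.2 TPM in WT LPS, and 85.4, 105 and 110 TPM in KO LPS. It rose without overlap (0.71 ± 0.08, adjusted p = 0.00278). H2-DMb2 rose by 1.15 ± 0.14 (adjusted p = 0.00374), from 26.3 and 23.7 TPM to 39.3, 45.1 and 51.3 TPM under PBS and from 13.02 to 16.2 TPM to 34.4 to 53.8 TPM under LPS. Its near copy H2-DMb1 had an effect of 0.08 ± 0.06 and was not called, and reads can be shared between the copies. H2-Oa (-0.16 ± 0.11), the class II genes H2-Aa (0.11 ± 0.26) and H2-Ab1 (0.06 ± 0.26) and the invariant chain gene Cd74 (0.05 ± 0.22) were not called. In all, 2 of 18 genes of the list rose and 1 fell, against 1.43% rises and 0.674% falls among all genes tested.

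Receptors of the sialic acid-binding Siglec family showed the same split. Of 8 measured members 1 rose and 1 fell (1.43% and 0.674% of all genes tested). Cd22, an inhibitory receptor known from B cells and also found on microglia, stood at 4.32 and 4.47 TPM in WT PBS, 0.935, 1.42 and 1.18 TPM in KO PBS, 16.1, 16.0, 15.7 and 15.2 TPM in WT LPS, and 4.44, 3.36 and 7.01 TPM in KO LPS. WT levels were tight and KO levels lay well below them (-1.45 ± 0.15, adjusted p = 0.00257). The B cell gene Ms4a1 stood below 1 TPM in all 12 libraries, while the immunoglobulin genes Ighm and Igkc stood at 76.0 to 348 TPM and 49.3 to 237 TPM. The part of B cells in the fall of Cd22 was not tested. Among 11 measured B cell markers the other call was the fall of Cd79b (-0.69), which held in 2 of the 12 fits that left out a library, those without KO_LPS_4 or WT_LPS_4. Summed B cell markers spanned 485 to 487 TPM in WT PBS, 326 to 556 TPM in KO PBS, 236 to 529 TPM in WT LPS and 299 to 447 TPM in KO LPS. Siglecf, an inhibitory receptor of eosinophils and some macrophages, stood at 31.3 and 28.3 TPM in WT PBS, 69.1, 69.1 and 70.3 TPM in KO PBS, 39.8, 48.4, 43.1 and 39.0 TPM in WT LPS, and 62.5, 72.3 and 98.2 TPM in KO LPS. It was higher in every KO library (0.98 ± 0.11, adjusted p = 0.00278). Siglech, a microglial marker of the same family, had an effect of -0.56 ± 0.14 and was not called (adjusted p = 0.0641).

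Of the lists of inflammatory genes, those of NF-kB signalling (43 genes), LPS sensing (21) and chemokines (25) held no call. Il6, the cytokine interleukin 6, was the one call among 18 cytokines, against 1.43% rises among all genes tested. It stood at 17.4 and 12.1 TPM in WT PBS, 24.6, 22.6 and 26.2 TPM in KO PBS, 9.72, 9.75, 14.6 and 9.69 TPM in WT LPS, and 25.3, 20.6 and 22.8 TPM in KO LPS. All KO libraries stood at 20.6 TPM or more and all WT libraries at 17.4 TPM or less (0.89 ± 0.13, adjusted p = 0.00887). Tnf (0.85 ± 0.44) and Il1b (0.14 ± 0.29) were not called. Tlr5, the receptor for bacterial flagellin, rose by 0.71 ± 0.10 (adjusted p = 0.00923) and was named after its values were seen. It stood at 28.6 and 29.3 TPM in WT PBS, 49.97, 44.8 and 47.1 TPM in KO PBS, 13.7, 13.3, 9.72 and 9.46 TPM in WT LPS, and 18.2, 17.8 and 22.5 TPM in KO LPS. Of 55 interferon response genes 52 had a negative effect, with a median of -0.52. None was called. An unadjusted limma p under 0.05 was reached by 28 of the 55, and by 2653 of all 18246 genes tested. For 7 of the 55, KO lay below WT without overlap under both treatments (1.17% of all genes tested). The summed level of the list was 2388 and 2444 TPM in WT PBS, 2138 to 2326 TPM in KO PBS, 6337 to 15215 TPM in WT LPS and 4761 to 6660 TPM in KO LPS, overlapping under LPS. Without WT_LPS_3 the median was -0.34 and 2 genes were called lower.

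Among the 15 largest rises by the rule for named genes, which leaves out small RNAs and model names, those outside these groups were Syt6, Epha2 and Maml3. Epha2, a receptor tyrosine kinase for ephrin-A ligands, had the smallest p of all genes tested. It stood at 37.0 and 42.7 TPM in WT PBS, 85.0, 73.2 and 76.3 TPM in KO PBS, 31.7, 26.5, 21.2 and 25.9 TPM in WT LPS, and 60.2, 53.6 and 65.8 TPM in KO LPS. KO lay above WT without overlap under both treatments, as the rule required (1.08 ± 0.10, adjusted p = 0.00250). Syt6, a synaptotagmin, rose from 0.679 and 1.63 TPM to 7.17, 6.14 and 4.78 TPM under PBS and from 1.32 to 2.82 TPM to 4.27 to 5.54 TPM under LPS (1.27 ± 0.21, adjusted p = 0.0125). Maml3, a coactivator of Notch signalling, rose by 0.77 ± 0.10 (adjusted p = 0.00645).

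The largest fall by the rule for named genes, which leaves out small RNAs and model names, was that of Cox6a2, the form of a cytochrome c oxidase subunit typical of heart and skeletal muscle and the one call among the oxidative phosphorylation subunits. It stood at 3.88 and 3.49 TPM in WT PBS, 0.301, 0.679 and 0.528 TPM in KO PBS, 16.9, 5.23, 16.4 and 12.8 TPM in WT LPS, and 2.91, 2.20 and 1.83 TPM in KO LPS. No KO library reached a WT library of its treatment, although WT_LPS_2 was well below its group (-1.83 ± 0.25, adjusted p = 0.00662). Angptl7, a secreted angiopoietin-like protein, stood at 25.4 and 19.0 TPM in WT PBS, 5.23, 2.89 and 6.25 TPM in KO PBS, 14.5, 11.04, 8.54 and 9.32 TPM in WT LPS, and 4.78, 3.85 and 5.59 TPM in KO LPS. It fell without overlap (-1.45 ± 0.23, adjusted p = 0.0123), by 2.04 under PBS and 1.03 under LPS (limma interaction, adjusted p = 0.634). Pim2, a serine/threonine kinase that promotes survival, stood at 18.7 and 15.3 TPM in WT PBS, 6.82, 9.34 and 11.3 TPM in KO PBS, 30.2, 31.3, 32.9 and 29.3 TPM in WT LPS, and 16.6, 13.8 and 11.3 TPM in KO LPS (-1.001 ± 0.13, adjusted p = 0.00480). KO lay below WT without overlap under each treatment, as the rule required of every fall in this paragraph. Kcnj9, a G protein-gated potassium channel subunit, fell by 1.34, Cdc42ep3, an effector of the GTPase Cdc42, by 1.14, Ptgfrn, a partner of tetraspanins, by 0.98, and Rcbtb2 by 0.95. The transcription factor gene Tbx6 (-1.19) and Lefty1, an antagonist of Nodal signalling (-0.91), fell as well, but neither was called without WT_PBS_904 (-1.16 and -0.82, adjusted p = 0.0634 and 0.0696). Srpk3 (-1.03), a kinase of splicing factors, was not called without WT_PBS_913 (-1.04, adjusted p = 0.0636), WT_PBS_904 or KO_PBS_912.

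**Figure D4:**
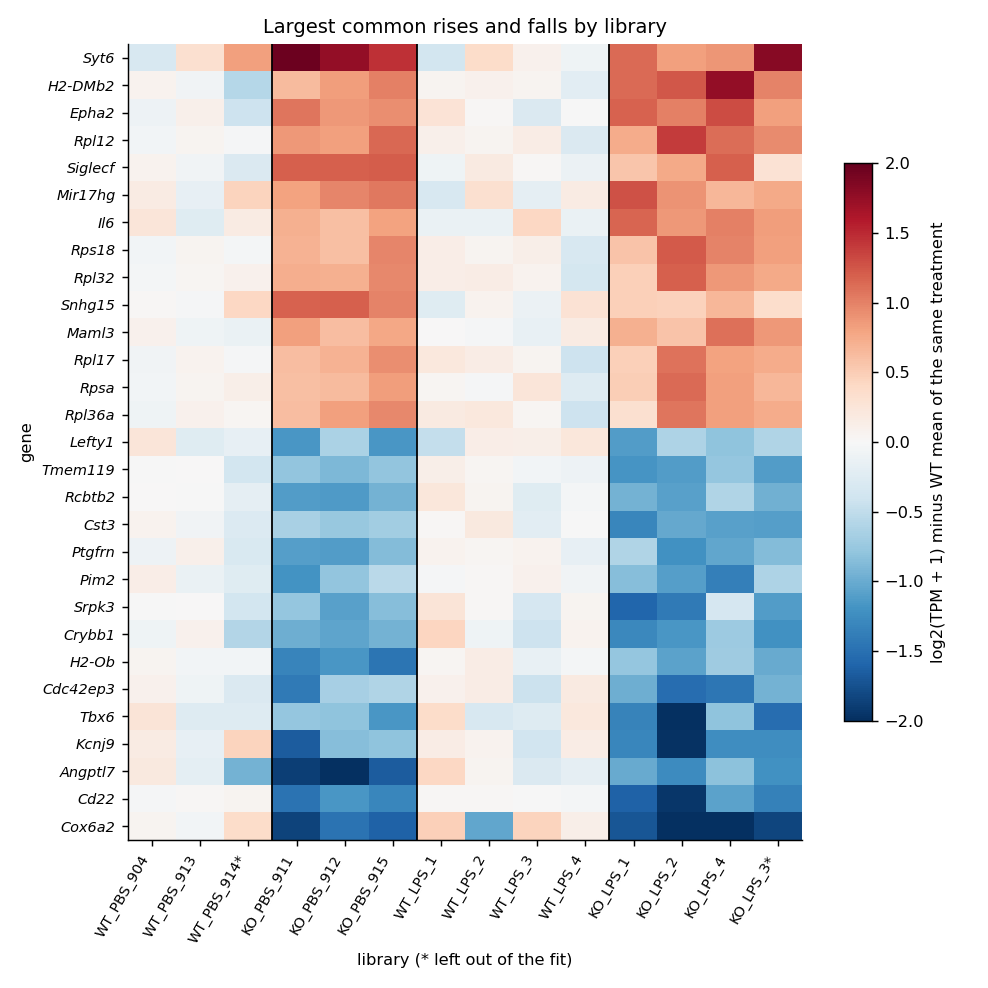
Each library's log2(TPM + 1) minus the mean of the WT libraries of its treatment (colour, limited to -2 to 2), for 14 of the 15 largest rises and the 15 largest falls by the rule for named genes. Libraries with a star were left out of the fit. KO columns are red for the rises and blue for the falls under PBS and LPS, as the rule required within the fit. WT columns are mostly paler, with Cox6a2 in WT_LPS_2 among the exceptions.

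Whether the effect differed between treatments was tested with the interaction, the KO effect under LPS minus that under PBS. Of 18246 genes, 3 were called (0.0164%), all of them short RNA genes known only by model names, and 1290 had an unadjusted p under 0.05. None of the 3 is among the 384 genes of the common effect, of which 19 had an unadjusted interaction p under 0.05. The median effect of the rises was 0.57 under PBS and 0.52 under LPS, and that of the falls was -0.56 and -0.55. The additive fit that picked the 384 selects genes shifted the same way under both treatments. Their values therefore cannot test whether the effects differ. H2-Ob fell by 1.32 under PBS and by 0.85 under LPS (limma interaction, adjusted p = 0.686), and H2-DMb2 rose by 0.82 and 1.38 (adjusted p = 0.695). Tmem119 fell by 0.83 and 1.02 (limma interaction, adjusted p = 0.878), Cd22 by 1.32 and 1.54 (adjusted p = 0.925) and Rpl12 rose by 0.95 and 1.08 (adjusted p = 0.945). A p above the threshold does not show that the effects were equal in size. Over all 18246 genes the effects under PBS and LPS, which share no library, had the same sign for 57.2% and correlated with Pearson's r of 0.13. That value is across genes, which are not independent replicates.

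**Figure D5:**
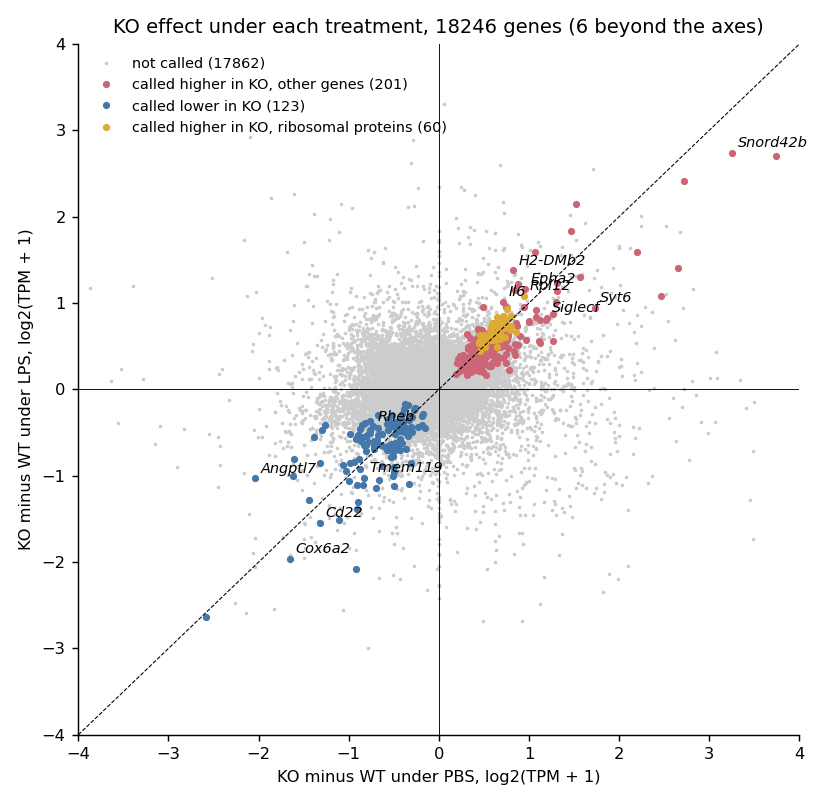
KO minus WT difference in log2(TPM + 1) under PBS (x) and under LPS (y) for 18246 genes, 6 of which lie beyond the axes, with the line of equal effects dashed. Called rises are red, or yellow for ribosomal proteins, and called falls are blue. The cloud of uncalled genes has little slope, and called genes lie along the line, as the additive fit selects genes shifted the same way.

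Markers of other cells were followed beside these changes. All 20 endothelial and mural markers had a negative effect, with a median of -0.56 and no call, and none of them was at 0 in any library. Their summed level was 2897 and 3788 TPM in WT PBS, 1283 to 2417 TPM in KO PBS, 1368 to 3473 TPM in WT LPS and 983 to 2861 TPM in KO LPS, so that it overlapped under LPS alone. Of 18 neutrophil markers 15 had a positive effect and none was called, with a median of 0.22. None of the astrocyte, oligodendrocyte, choroid plexus and ependymal, neuron, monocyte or pituitary markers was called. The effect was negative for 12 of 14 astrocyte markers and 15 of 15 oligodendrocyte markers, positive for 12 of 14 choroid plexus and ependymal markers and 5 of 7 neuron markers, and positive for 7 of 15 monocyte markers. Summed astrocyte markers stood at 1245 and 1349 TPM in WT PBS and 877 to 1087 TPM in KO PBS without overlap, and at 388 to 780 TPM in WT LPS and 417 to 887 TPM in KO LPS. Of 10 measured pituitary and endocrine markers 7 had a negative effect, with a median of -0.59, which was -1.34 under PBS and 0.04 under LPS. Their sum was 212 and 280 TPM in WT PBS, 10.7 to 276 TPM in KO PBS, 8.93 to 72.6 TPM in WT LPS and 5.08 to 74.1 TPM in KO LPS. Of 15 border macrophage markers 12 had a positive effect, and Stab1, a scavenger receptor, fell by 0.46, a call lost without WT_PBS_904 (-0.45, adjusted p = 0.0507). The part of these cells in the changes above was not tested.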

How the data were processed

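Per the labels' protocols, TRIZOL was used for extraction and a universal Illumina kit for the libraries. Strand is not given in the sources used here. Per the submitters' processing notes, STAR 2.7.10b, featureCounts 2.0.1, cutadapt 4.4 and FastQC 0.11.9 were used. They name the human build hg38, although the IDs are mouse Ensembl genes. The authors deposited TPM per gene. The table held 41739 genes, 12553 at 0 in all 14 libraries, and 41588 IDs had a gene name. Reads per library were recovered from TPM and GENCODE M21 exon lengths within a tolerance of 0.02 reads.

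The log2 of TPM plus 1 was fitted with limma 3.58.1 in R 4.3.3 (treatment plus genotype, intensity trend) for genes that reached a TPM of 1 in 3 or more of the 12 libraries. Effects within a treatment and the interaction came from a fit of 4 group means. The scripts were tested on simulated data. Errors of fold changes are SE over 12 libraries. Changes of log2(TPM + 1) understate those of low genes.

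Named were Rheb, Rhebl1, Mtor, Rptor, Tmem119, the 15 called genes with the largest rise and the 15 with the largest fall (mean TPM of the higher genotype 5 or more, no overlap within a treatment, no model name or small RNA), up to 4 called members of a list per direction and the interaction's leading genes. The text gives some of these, and the others are not reported here. Further genes in the text were picked after their values were seen. The members and the gene lists were chosen with earlier results of these data known, so no list supports its own direction. Sequences and their coordinates are from RefSeq (GRCm38.p6) by gene symbol. Other settings were pseudocounts, filters, scalings, variance options, library weights, all 14 libraries, a replicate block and leaving out each library. Added after seeing the data were voom on recovered reads, removal of features under 200 nt, removal of KO_LPS_4 and WT_LPS_4 together, and rescaling without ribosomal protein genes.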

Additional observations from a re-analysis of the deposited data

Results flagged for a closer look

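Among 38 values tested in the 4 WT LPS libraries, 6 had 1 library set apart from the other 3 by a gap larger than Dixon's 95% limit, which chance passes in about 1 in 20 groups. WT_LPS_4 stood lowest in 4 of them: H2-DMb2 at 13.02 TPM, Rpl32 at 728 TPM, Ptgfrn at 27.6 TPM and the summed level of cytosolic ribosomal proteins at 4.14e+04 TPM. WT_LPS_3 stood highest for Il6 at 14.6 TPM and lowest for Kcnj9 at 4.85 TPM. None of these libraries reached the KO libraries of the same treatment. For the single genes this was fixed in advance by the rule for named genes, which required no overlap.

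The KO effect differed between treatments, by the interaction in limma, for 3 short RNA genes. It was 6.31 higher under LPS than under PBS for Gm22858 (adjusted p = 0.0213) and 2.34 higher for Gm24465 (adjusted p = 0.0429). It was lower under LPS by -2.72 for Gm44450 (adjusted p = 0.0429). Gm22858 was listed at 0 in the 3 KO PBS libraries and at 18.7 and 40.5 TPM in the WT PBS libraries. Gm24465 was above 0 in the 3 KO LPS libraries of the fit alone, at 3.70 to 4.65 TPM, and Gm44450 in the 3 KO PBS libraries alone, at 4.05 to 7.88 TPM. In the left-out libraries Gm24465 was at 0 in KO_LPS_3, and Gm44450 was at 1.67 TPM in WT_PBS_914 and 1.30 TPM in KO_LPS_3.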

How the results depend on the processing

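The number of genes with a common effect, 384, ranged from 84 to 434 when 1 library was left out, and was 239 without the intensity trend, 669 with library weights, 652 with all 14 libraries and 247 without KO_LPS_4 and WT_LPS_4. Under each other setting it lay between 258 and 493. The 3 interaction calls became 8 with no filter, 1 with a filter at a TPM of 5, 1 with robust moderation and 6 with library weights. They became 0 with all 14 libraries, 0 with voom, 0 without features under 200 nt, and 0 to 5 with 1 library left out. The effect on Rheb lay between -0.62 and -0.50 with 1 library left out. For the 103 named genes, 336 of 2854 values under other settings lost their call and 15 gained one. Among values called in the fit of 12 libraries or under the other setting, 0 changed sign. Changes of sign without a call were not counted: Mtor lay between -0.03 and 0.05 with 1 library left out. The cause of these shifts was not tested. Replicate numbers are shared by WT and KO under LPS alone. Deviations of same-numbered libraries correlated with r of 0.09, -0.04 and -0.03, so the numbers were not taken to pair them. With a replicate block 366 genes were called, 262 of them among the 384, and the interaction gave 0. WT PBS held 2 libraries, and without 1 of them the other is assumed to vary like the other groups. KO_LPS_4, at 8.00 M reads, limits low genes most.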
